A study of Mus musculus with 9 samples.

Results

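The ventricular zone of the embryonic hypothalamus was compared with the medial mantle zone beside it. The comparison rests on 6 of the 9 libraries of the study, 3 from each zone, and on the 13311 of 38195 genes that reached at least 1 FPKM in at least 3 of those 6 libraries. FPKM, the deposited unit, is a fragment count scaled to the length of the transcript and the size of the library. The mice were of the outbred strain CD-1, with no other allele or treatment named in the labels, and all embryos were at E12.5, a stage named by the days since mating. The zones were cut by hand from vibratome slices of the hypothalamus, and mRNA libraries were made from their total RNA. A further 3 libraries came from the lateral mantle zone and enter here through the shared estimate of the spread. The labels do not say which embryos, litters or pools gave each library, so p-values measure only the spread between these libraries, which may be technical.

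The ventricular zone lines the ventricle and is made of radial glia, the dividing stem cells of the embryonic brain, together with cells that have begun to turn into neurons. Newborn neurons leave it and settle in the mantle zone, where they switch on genes for axons, transmitters and peptides. In the hypothalamus, sets of transcription factors divide both layers into territories that later form separate nuclei. Notch, Wnt and Hedgehog signalling act on the progenitors: Notch ligands on neighbouring cells hold back differentiation, while Wnt and Sonic hedgehog proteins set growth and position.

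Depth and the position of 1 library touch every result. The low values, which move in steps of 1 fragment, imply about 260233 and 535088 fragments for replicate 3 of the ventricular and of the medial mantle zone, against 4416906 to 8823904 in the other 7 libraries. On a 2 kb transcript 1 fragment is worth 1.92 and 0.934 FPKM in these 2 shallow libraries, so a gene listed at 0 there may be present at a few FPKM. Ventricular zone replicate 2, which is deep, lay close to the medial mantle zone. Across the tested genes its log2(FPKM + 1) values had a Pearson correlation of 0.971 and 0.974 with medial mantle zone replicates 1 and 2 and of 0.949 with ventricular zone replicate 1, over genes, which are not independent. In 4534 genes ventricular zone replicates 1 and 3 both lay on one side of all medial mantle zone libraries. In 78.2% of these, replicate 2 was nearer to the medial mantle zone mean than to the mean of replicates 1 and 3. The same measure gave 37.2% of 2751 genes with replicate 1 set apart and 44.2% of 3497 genes with replicate 3 set apart.

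No gene passed the test between the zones. In limma's moderated test on log2(FPKM + 1), fitted to all 9 libraries and adjusted by the Benjamini-Hochberg method over the 13311 genes, 0 genes (0.00%) had an adjusted p below 0.05. At an unadjusted p below 0.05 there were 1627 genes (12.2%), 510 higher (3.83%) and 1117 lower (8.39%) in the ventricular zone. The lowest adjusted p was 0.0597, shared by 3 genes, and 10 genes were below 0.1. All differences below are therefore given as values and not as changes. As a measure that does not use the fitted spread, genes were counted whose 3 ventricular zone values all lay above, or all below, the 3 medial mantle zone values. There were 2000 such genes, 744 above (5.59%) and 1256 below (9.44%). After trimmed mean scaling the split was 974 (7.32%) above and 1060 (7.96%) below, and after quantile normalization it was 961 (7.22%) and 1058 (7.95%). Of the 1256 genes, 252 were listed at 0 in the shallow ventricular zone library, and of the 744, 79 were listed at 0 in the shallow medial mantle zone library. A gene under 1 FPKM in all 3 libraries of a zone passed the filter only through the other zone. The filter then fixed its lack of overlap, as for Lhx8, Trh, Neurog3, Six6 and Msx1, described below. An exact permutation test of 3 libraries against 3 could not give a two-sided p under 0.1. For interchangeable libraries 0.1 is also the probability that a gene shows no overlap, split evenly between the directions. The 2000 genes are read beside that share, and their number was not tested.

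**Figure D1:**
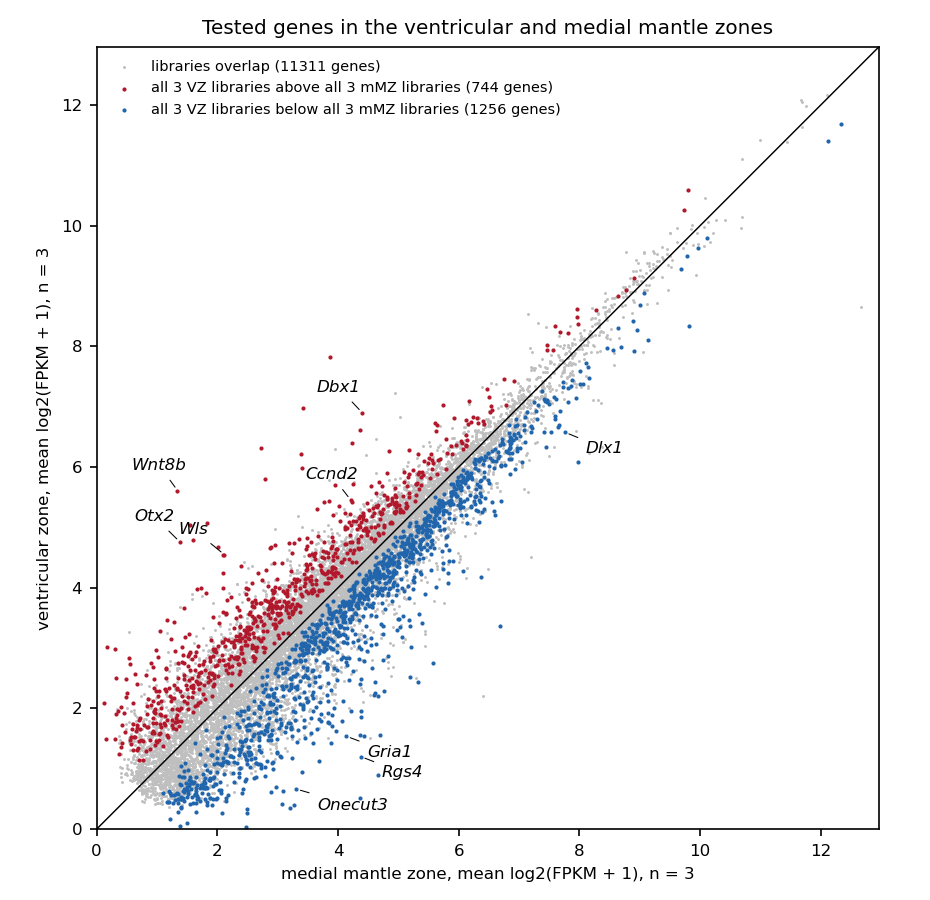
Mean log2(FPKM + 1) of each tested gene in the medial mantle zone (x axis) and the ventricular zone (y axis), 3 libraries each. Red points are the 744 genes whose ventricular zone libraries all lie above the medial mantle zone libraries, blue points the 1256 that all lie below, grey points the remaining genes, and the line marks equal means. Most genes lie along the line, and some of the genes described in the text are labelled.

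Leaving out ventricular zone replicate 2 gave 610 genes past the threshold (4.58%), 105 higher (0.789%) and 505 lower (3.79%). It was the only single library with this effect: the count stayed at 0 with each of the other 8 left out in turn. The 610 moved in turn: 0 genes passed when the lateral mantle zone libraries were also kept out of the fit, and 24 to 4235 when 1 further library was left out. This fit was taken up after its count had been seen. In simulated data with a separate spread for each library, the share of false calls was above 0.05 with and without this replicate. The share was below 0.05 when all libraries had an equal spread. The simulated levels were raised above the measured ones, away from 0, and ventricular zone replicate 2 was not shifted toward the medial mantle zone. The simulation therefore does not give the share for the 610, which may hold more false calls than the threshold of 0.05 states. Their own share of false calls was not tested. Of the 610 genes, 312 (51.1%) were also without overlap over all 6 libraries.

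The genes described first are the 15 in each direction with the lowest p among those without overlap between the libraries and with at least 5 FPKM in the higher zone. Their lack of overlap follows from that choice, and ranking by p favours genes with little spread within the zones. Dbx1 (on mm10, chr7:49631499-49636849, minus strand), a homeodomain factor of hypothalamic and spinal progenitors, had 124, 74.0 and 181 FPKM in the ventricular and 23.0, 21.6 and 16.2 FPKM in the medial mantle zone. Every ventricular zone library was above every medial mantle zone library, and the log2 difference was 2.504 ± 0.31 (SE; limma adjusted p = 0.0597). Sim2 (chr16:94084931-94127032, plus strand), a bHLH-PAS factor, had 19.2, 10.7 and 19.4 against 4.88, 4.21 and 5.96 FPKM (log2 difference 1.4996 ± 0.31). Uncx (chr5:139543494-139548179, plus strand), a homeodomain factor, had 95.0, 148 and 76.5 against 53.6, 47.6 and 46.3 FPKM, with replicate 2 the highest of the ventricular zone. Otx2 (chr14:48657677-48673819, minus strand), a homeodomain factor of forebrain and midbrain, had 32.3, 12.502 and 43.3 against 4.92, 1.96 and 0 FPKM, the last of these in a shallow library (log2 difference 3.38 ± 0.64). Tgif1 (chr17:70844205-70853546, minus strand), a homeodomain repressor, had 21.9, 8.06 and 15.7 against 2.80, 4.15 and 1.18 FPKM. All 5 bind DNA, and Dbx1 was the most abundant of them in ventricular zone replicates 1 and 3.

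Secreted and membrane proteins made up another group of the higher genes. Wnt8b (chr19:44493472-44514273, plus strand), a Wnt ligand, had 62.5, 26.4 and 65.9 FPKM in the ventricular and 5.29, 1.58 and 0 FPKM in the medial mantle zone. Its log2 difference of 4.27 ± 0.61 (adjusted p = 0.0729, limma) was the largest of the 15. Wls (chr3:159839672-159938664, plus strand), the carrier that Wnt proteins need to leave the cell, had 26.0, 12.4 and 34.3 against 5.97, 2.63 and 2.22 FPKM (log2 difference 2.43 ± 0.40). Tpbg (chr9:85842380-85847040, plus strand), a membrane glycoprotein, had 15.9, 9.48 and 37.5 against 4.18, 3.81 and 2.08 FPKM. Tnfrsf19 (chr14:60963875-61046490, minus strand), a receptor of the TNF receptor family, had 14.6, 9.22 and 17.7 against 4.20, 3.77 and 3.15 FPKM. In each of these genes ventricular zone replicate 2 was the lowest of its zone, and by the choice of genes it lay above every medial mantle zone library. Igdcc3 (chr9:65141189-65185872, plus strand) and Igdcc4 (chr9:65101486-65137940, plus strand), neighbouring genes for immunoglobulin-domain membrane proteins, had 46.3, 30.3 and 40.6 against 16.6, 11.4 and 8.11 FPKM and 21.1, 11.9 and 22.5 against 5.68, 7.37 and 3.67 FPKM.

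The remaining higher genes act in growth and metabolism. Ccnd2 (chr6:127125162-127152193, minus strand), cyclin D2, which drives passage through G1, had 33.9, 49.7 and 46.6 against 20.1, 18.8 and 14.1 FPKM (log2 difference 1.25 ± 0.21, limma adjusted p = 0.143). Shmt2 (chr10:127517123-127522444, minus strand), the mitochondrial serine hydroxymethyltransferase of one-carbon metabolism, had 37.8, 28.9 and 43.6 against 19.7, 16.9 and 15.4 FPKM. Nuak2 (chr1:132316126-132333488, plus strand), a kinase related to AMPK, had 31.6, 20.2 and 34.4 against 11.3, 10.6 and 13.5 FPKM. H2-Ke6 (chr17:34026033-34028060, minus strand), which encodes a 17-beta-hydroxysteroid dehydrogenase, had 95.7, 83.4 and 147 against 45.7, 57.5 and 41.7 FPKM. The log2 differences of these 4 genes lay between 1.03 and 1.25.

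**Figure D2:**
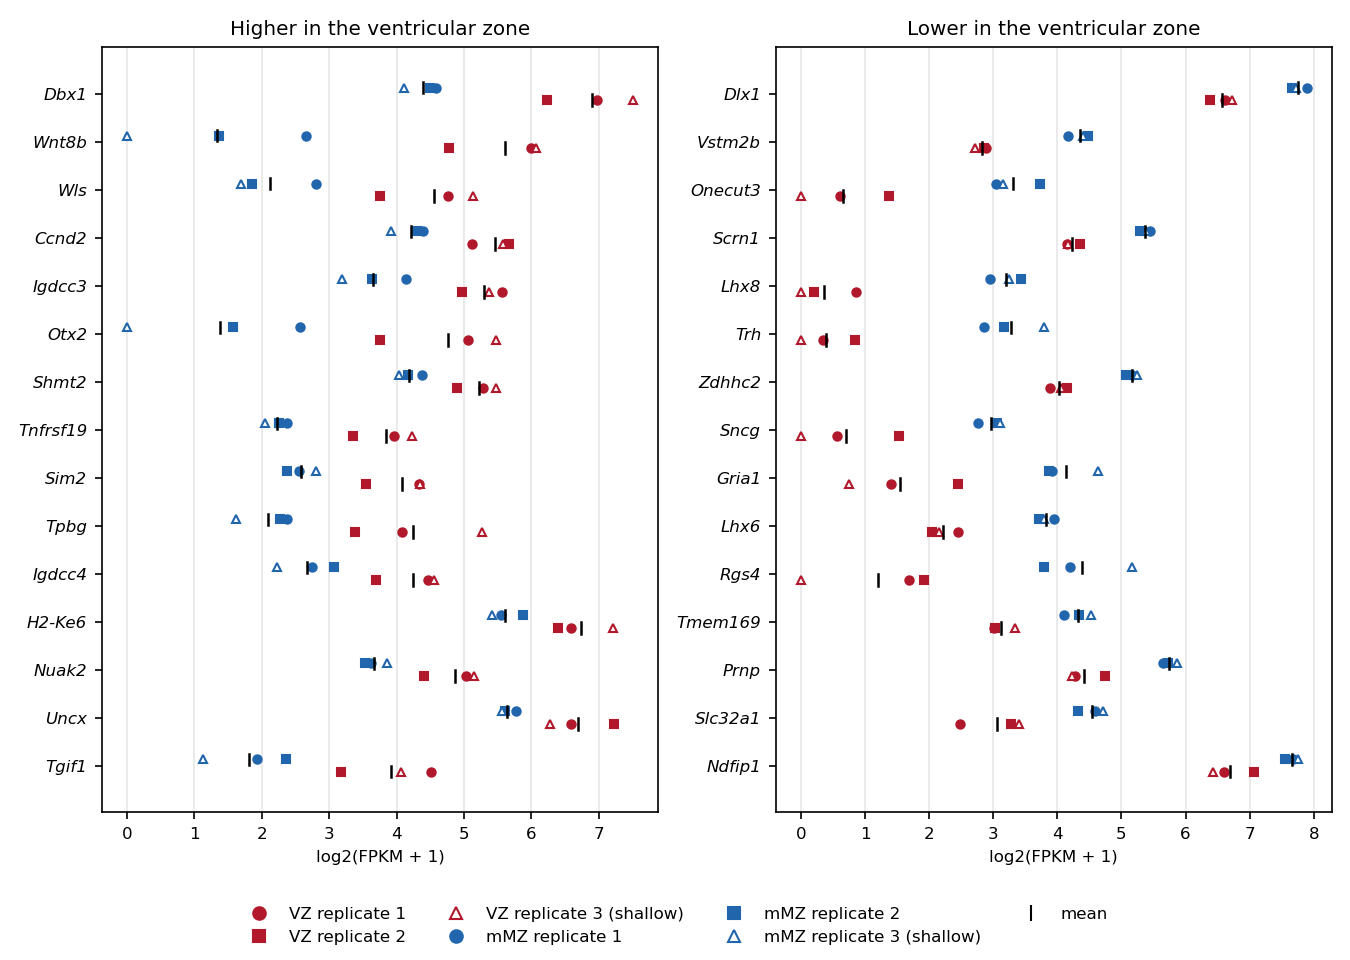
log2(FPKM + 1) of the 15 genes with the lowest p in each direction, by library. Red symbols are ventricular zone (VZ) and blue symbols medial mantle zone (mMZ) libraries, circles, squares and triangles are replicates 1, 2 and 3, open triangles are the shallow libraries, and black ticks are means. No gene has a red symbol among the blue ones, which is how the genes were chosen, and none passed the adjusted threshold.

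Among the lower genes, transcription factors of forebrain neurons stood beside genes of neuronal function. Dlx1 (chr2:71528113-71533981, plus strand), a homeodomain factor of GABAergic neurons, had 96.6, 82.7 and 105 FPKM in the ventricular and 236, 202 and 211 FPKM in the medial mantle zone. Its libraries agreed closely within each zone, and the log2 difference was -1.19 ± 0.14 (limma adjusted p = 0.0597). Lhx6 (chr2:36081953-36105408, minus strand) and Lhx8 (chr3:154306294-154330659, minus strand), LIM-homeodomain factors of ventral forebrain neurons, had 4.45, 3.10 and 3.47 against 14.4, 12.1 and 12.9 FPKM and 0.815, 0.151 and 0 against 6.69, 9.75 and 8.43 FPKM. Lhx8 was thus near or at 0 in every ventricular zone library. Onecut3 (chr10:80494835-80517276, plus strand), a factor of newborn neurons, had 0.525, 1.60 and 0 against 7.24, 12.3 and 7.92 FPKM (log2 difference -2.65 ± 0.36, limma adjusted p = 0.0698).

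Several lower genes encode membrane and trafficking proteins. Vstm2b (chr7:40898328-40930594, plus strand) had 6.41, 6.26 and 5.57 against 17.0, 21.2 and 20.2 FPKM (log2 difference -1.53 ± 0.20, limma adjusted p = 0.0605). Scrn1 (chr6:54501173-54566489, minus strand), secernin 1, had 16.7, 19.5 and 17.0 against 42.5, 38.3 and 40.7 FPKM. Zdhhc2 (chr8:40423815-40510268, plus strand), a palmitoyltransferase, had 13.7, 16.7 and 15.6 against 34.8, 32.7 and 37.0 FPKM. These 3 genes had little spread within either zone. Prnp (chr2:131909928-131938429, plus strand), the prion protein, had 18.3, 25.8 and 17.8 against 48.9, 51.8 and 57.7 FPKM. Tmem169 (chr1:72284369-72303104, plus strand) had 7.08, 7.17 and 9.08 against 16.2, 19.3 and 22.0 FPKM, and Ndfip1 (chr18:38410396-38465303, plus strand), an adaptor of Nedd4 ubiquitin ligases, had 95.8, 134 and 84.8 against 204, 187 and 215 FPKM.

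Of the genes of transmission, Slc32a1 (chr2:158610767-158615748, plus strand), the vesicular transporter for GABA and glycine, had 4.60, 8.67 and 9.54 against 23.1, 19.0 and 25.1 FPKM. Gria1 (chr11:57011387-57330244, plus strand), an AMPA receptor subunit, had 1.65, 4.49 and 0.688 against 14.0, 13.6 and 23.8 FPKM. Rgs4 (chr1:169741477-169747642, minus strand), a regulator of G protein signalling, had 2.21, 2.78 and 0 against 17.4, 12.8 and 34.7 FPKM, and its log2 difference of -3.18 ± 0.55 was the largest of the lower 15. Medial mantle zone replicate 3 was the highest library for Gria1 and for Rgs4. Trh (chr6:92242061-92244650, minus strand), the precursor of thyrotropin-releasing hormone, had 0.266, 0.785 and 0 against 6.24, 8.01 and 12.8 FPKM. Sncg (chr14:34370274-34374789, minus strand), gamma-synuclein, had 0.475, 1.88 and 0 against 5.79, 7.29 and 7.56 FPKM. Both were under 2 FPKM in all ventricular zone libraries.

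Promoters are shown for the first 2 genes by rank in each direction that had one in the RefSeq table (build GRCm38.p6), to set sequence beside the genes of lowest p. Each run is the 250 bases before the RefSeq start, 5′ to 3′ on the gene's strand, and capitals mark matches on either strand to TTTGAA (the core of the cell cycle homology region), CCAAT (the Y box) or TGGGAA (the Rbpj core). The windows are chr7:49636836-49637085, minus strand for Dbx1, chr19:44493222-44493471, plus strand for Wnt8b, chr2:71529195-71529444, plus strand for Dlx1 and chr7:40899028-40899277, plus strand for Vstm2b. RefSeq starts can differ from the ends of the GENCODE spans given above. The windows of Dlx1 and Vstm2b lie inside those spans, and that of Dbx1 overlaps the end of its span.
Dbx1: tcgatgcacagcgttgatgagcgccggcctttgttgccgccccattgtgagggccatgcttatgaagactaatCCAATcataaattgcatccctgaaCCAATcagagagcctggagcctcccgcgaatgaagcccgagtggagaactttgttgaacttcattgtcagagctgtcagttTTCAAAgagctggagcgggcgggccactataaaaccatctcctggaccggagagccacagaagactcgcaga
Wnt8b: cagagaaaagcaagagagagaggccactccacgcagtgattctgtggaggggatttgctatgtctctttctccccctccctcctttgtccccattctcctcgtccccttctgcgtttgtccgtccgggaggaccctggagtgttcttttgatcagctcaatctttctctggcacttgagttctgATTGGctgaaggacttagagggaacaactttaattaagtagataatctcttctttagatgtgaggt
Dlx1: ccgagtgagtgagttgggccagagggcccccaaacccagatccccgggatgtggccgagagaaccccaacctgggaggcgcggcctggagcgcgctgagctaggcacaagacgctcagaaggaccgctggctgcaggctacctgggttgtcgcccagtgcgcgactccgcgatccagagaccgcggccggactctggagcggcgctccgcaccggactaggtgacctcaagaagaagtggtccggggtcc
Vstm2b: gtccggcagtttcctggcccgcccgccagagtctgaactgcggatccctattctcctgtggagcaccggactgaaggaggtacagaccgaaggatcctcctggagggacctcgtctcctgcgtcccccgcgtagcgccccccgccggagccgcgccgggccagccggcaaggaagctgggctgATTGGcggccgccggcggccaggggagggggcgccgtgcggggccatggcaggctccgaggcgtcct
The Dbx1 window held 2 matches to CCAAT and 1 to the reverse complement of TTTGAA, the Wnt8b and Vstm2b windows each held 1 match to the reverse complement of CCAAT, and the Dlx1 window held none of the 3. Of the 30 genes, 23 had a window. TTTGAA was found in 2 of 12 higher and 0 of 11 lower genes, against 16.3% of all 27025 windows and 9.72% of the 9135 windows of tested genes. CCAAT was found in 4 and 5 genes, against 34.5% and 36.9%, and TGGGAA in 3 and 0 genes, against 21.5% and 19.99%. These counts are descriptions of letters in a window.

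Gene lists were described by the median log2 difference of their tested members, beside -0.05 over all tested genes, and by their members without overlap, beside 5.59% above and 9.44% below. No member of any list passed the adjusted threshold in the fit to all libraries. Some genes stand in more than 1 list. With fewer libraries fewer genes overlap: without ventricular zone replicate 2 the shares over all genes were 12.7% above and 21.4% below, and in the deep libraries alone 17.8% and 25.9%, and counts of members under these settings are read beside those shares. In tissue pieces such as these, fewer cells of a type and less RNA per cell cannot be told apart. Members named below from the lists were chosen after their values were seen, except the highest expressed pair of each list, which a fixed rule named.

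**Figure D3:**
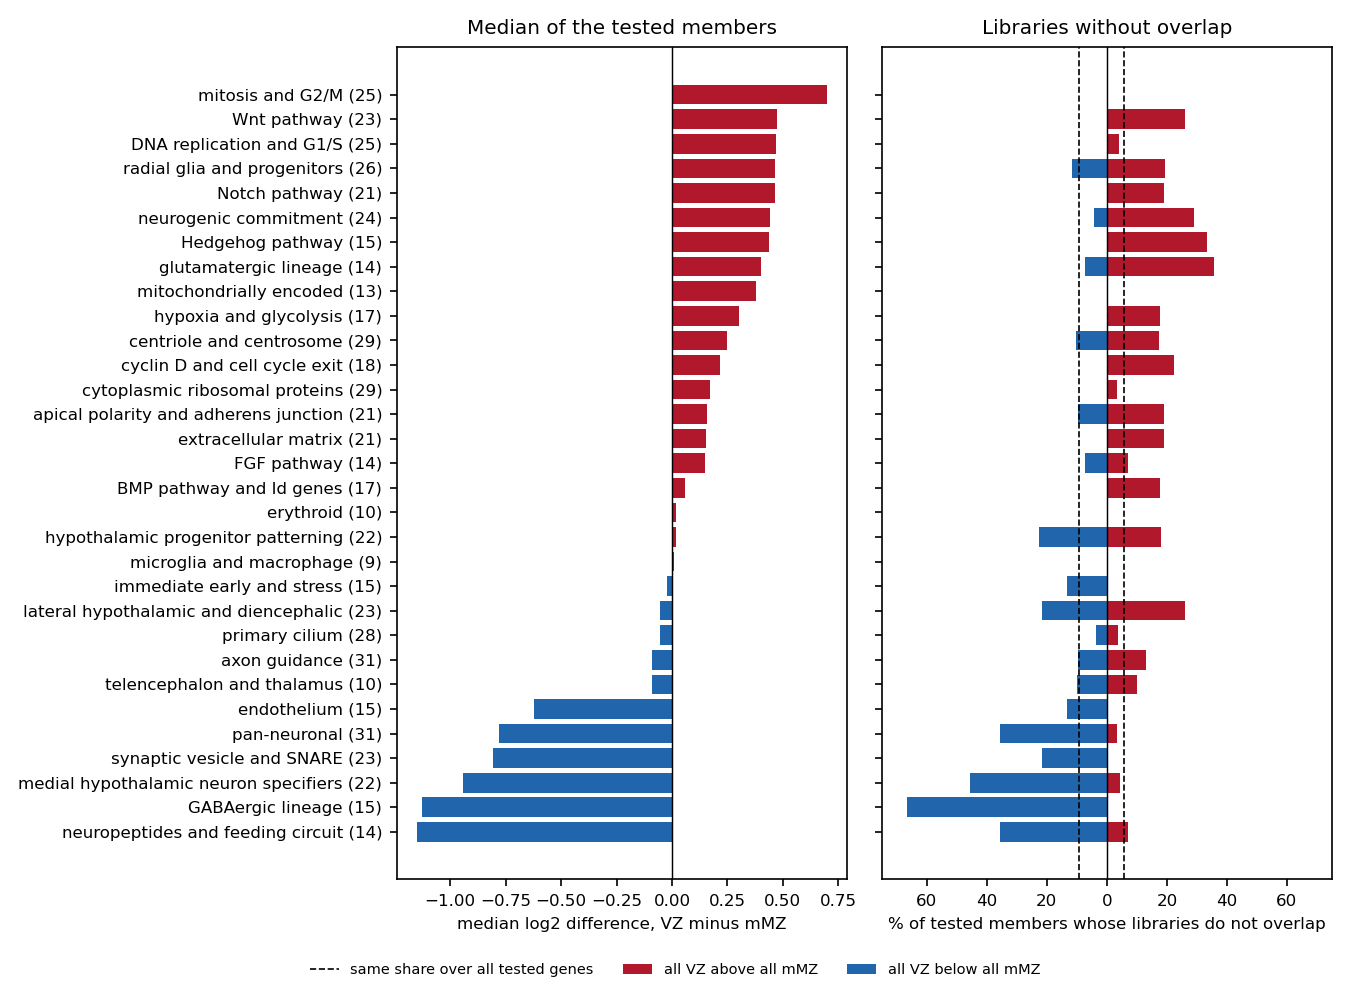
Gene lists with at least 9 tested members (number in brackets). Left, the median log2 difference between the ventricular and medial mantle zones; right, the percentage of members whose libraries all lie above (red) or all below (blue) those of the medial mantle zone, with dashed lines at the shares over all tested genes, 5.59% and 9.44%. GABAergic genes have the highest share below, and mitosis genes have the highest median and no member without overlap.

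Radial glia and progenitor genes had a median of 0.47. Of 26 tested, 5 were above in all libraries and 3 below. Without ventricular zone replicate 2, 15 were above and 3 below, with a median of 0.70, and in the deep libraries alone 8 and 4, with a median of 0.37. Nes, the intermediate filament nestin, had 128, 90.0 and 191 against 54.8, 53.6 and 48.8 FPKM (log2 difference 1.30 ± 0.33), and Sox9, a factor of radial glia, had 36.2, 17.6 and 71.3 against 16.1, 13.9 and 12.7 FPKM. Prom1, the apical membrane protein prominin 1, had 27.5, 16.9 and 30.8 against 14.3, 14.1 and 13.1 FPKM. Sox1 and Sox3, SOXB1 factors of neural progenitors, lay the other way, with 25.7, 14.2 and 31.5 against 36.3, 38.1 and 32.1 FPKM and 38.0, 19.1 and 37.9 against 50.4, 60.2 and 48.6 FPKM. The list therefore held members on both sides. Its highest expressed pair, Vim (vimentin) and Fabp7 (a lipid carrier in radial glia), overlapped at 918, 522 and 899 against 555, 481 and 568 FPKM and 360.3, 161 and 296 against 251, 188 and 163 FPKM.

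Mitosis and G2/M genes had the highest median of the lists with at least 9 members, 0.70, and all 25 estimates were above 0. Yet no member was without overlap. Top2a, the topoisomerase of dividing cells, had 69.4, 43.9 and 172 against 27.1, 42.3 and 61.1 FPKM, and Ube2c, a ubiquitin-conjugating enzyme of mitotic exit, had 66.8, 59.6 and 135 against 32.5, 50.9 and 77.8 FPKM. The order of libraries was alike in both: the shallow replicate 3 was the highest of each zone, and ventricular zone replicate 2 was the lowest of its own. Without that replicate 13 of the 25 were above all medial mantle zone libraries, beside 12.7% of all genes, and in the deep libraries alone 21 of 25, beside 17.8%. Genes of DNA replication and G1/S had a median of 0.47, with 25 of 25 estimates above 0 and 1 without overlap, E2f1, a factor that starts S phase (20.4, 12.46 and 46.1 against 6.14, 9.13 and 10.8 FPKM). Its highest expressed pair, Mcm7 of the replicative helicase and Pcna of the replication fork, overlapped at 66.5, 63.7 and 141 against 58.8, 68.4 and 58.5 FPKM and 53.4, 46.3 and 104 against 36.2, 44.8 and 71.8 FPKM. Without ventricular zone replicate 2, 2 of the 25 were above, and in the deep libraries alone 18. In the list of D cyclins and cell cycle exit 4 of 18 were above and 0 below, with a median of 0.22, while 7 were above and 2 below without ventricular zone replicate 2 and 10 and 0 in the deep libraries. Of this list, Cdk4, the kinase partner of the D cyclins, overlapped at 592, 513 and 884 against 631, 573 and 635 FPKM, and Cdkn1c, an inhibitor of cyclin-dependent kinases, had 226, 257 and 298 against 208, 164 and 159 FPKM.

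Cenpj, the gene in the title of the study, encodes a protein needed to build centrioles (chr14:56526761-56575425, minus strand). It had 6.57, 4.67 and 6.83 FPKM in the ventricular and 3.59, 3.41 and 2.90 FPKM in the medial mantle zone. All ventricular zone libraries were above all medial mantle zone libraries, and the log2 difference was 0.70 ± 0.26 (limma adjusted p = 0.379). Among 29 centriole and centrosome genes the median was 0.25, with 5 above and 3 below, against 8 and 3 and a median of 0.44 without ventricular zone replicate 2 and 12 and 3 in the deep libraries. Akna, a protein of the mother centriole's appendages, had 13.5, 7.89 and 17.8 against 6.13, 5.003 and 5.67 FPKM. Stil, a partner of Cenpj in centriole assembly, had 6.89, 2.39 and 16.2 against 1.52, 2.28 and 2.72 FPKM, where replicate 2 of the ventricular zone lay within the medial mantle zone range. The list's most abundant members were Odf2 (65.8, 55.5 and 43.9 against 42.6, 56.3 and 53.7 FPKM) and Cdk5rap2 (42.9, 48.9 and 47.9 against 62.5, 52.5 and 57.4 FPKM), and Cdk5rap2 was below in all libraries. Primary cilium genes had a median of -0.05, with 1 of 28 above and 1 below, the same median as over all tested genes. Ift46, a part of the transport train of cilia, and Kif3a, its motor, had 65.8, 77.4 and 121 against 97.4, 84.9 and 54.5 FPKM and 28.2, 40.1 and 29.4 against 48.9, 40.2 and 35.0 FPKM. Among genes of apical polarity and adherens junctions, which hold radial glia to the ventricle, 4 of 21 were above and 2 below, with a median of 0.16, against 8 and 4 without ventricular zone replicate 2 and 9 and 5 in the deep libraries. Their most abundant members were Ctnnb1 (beta-catenin), which overlapped at 292, 276 and 508 against 354, 308 and 393 FPKM, and Cdh2 (N-cadherin), which was below throughout at 65.5, 87.5 and 82.2 against 96.7, 90.6 and 99.5 FPKM.

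Of the Notch genes, 4 of 21 were above and 0 below, with a median of 0.46. Without ventricular zone replicate 2, 12 were above, with a median of 0.82, and in the deep libraries alone 6 were above and 1 below, with a median of 0.29. The ligand Dll1 had 91.8, 46.6 and 141 against 44.7, 52.1 and 37.4 FPKM and the receptor Notch1 had 83.2, 38.2 and 144 against 35.9, 36.5 and 32.9 FPKM. The receptor was free of overlap and the ligand was not. Mfng, a glycosyltransferase that modifies Notch, had 136, 77.9 and 128 against 55.3, 53.8 and 70.4 FPKM. The target Hes5, which represses neuronal genes, had 55.6, 27.6 and 212 against 41.0, 29.5 and 74.3 FPKM, with an estimate of 0.61 ± 0.69. Without ventricular zone replicate 3 the estimate was -0.19, with the shallow medial mantle zone library, the highest of its zone, still in the fit. In the deep libraries alone the estimate stayed above 0.

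Among Wnt genes 6 of 23 were above and 0 below, with a median of 0.47. Without ventricular zone replicate 2, 8 were above and 2 below, with a median of 0.60, and in the deep libraries alone 10 and 2, with a median of 0.29. Beside Wnt8b and Wls, described above, the ligand Wnt5a had 9.19, 6.47 and 6.17 against 3.17, 2.95 and 2.99 FPKM, and Rspo2, an R-spondin that strengthens Wnt signalling, had 31.5, 9.36 and 61.3 against 2.35, 7.37 and 0 FPKM. The most abundant ligand, Wnt7b, had 102, 56.4 and 179 against 49.5, 37.8 and 68.3 FPKM and overlapped, as did the receptor Fzd3 at 25.9, 16.4 and 85.1 against 18.7, 19.4 and 30.3 FPKM. Axin2, a target of the pathway, had 17.9, 8.43 and 34.0 against 9.09, 10.2 and 5.85 FPKM, with replicate 2 of the ventricular zone inside the medial mantle zone range. Of 15 Hedgehog genes, 5 were above and 0 below, with a median of 0.44. In the deep libraries alone 8 were above and 3 below, with a median of 0.17, and without ventricular zone replicate 2, 8 and 1. The co-receptors Boc and Cdon had 4.13, 3.38 and 4.20 against 0.821, 1.35 and 0.815 FPKM and 11.1, 3.82 and 14.6 against 1.87, 2.14 and 0 FPKM. Smo, the signal transducer, had 43.9, 27.9 and 66.4 against 26.1, 24.6 and 33.2 FPKM, the ligand Shh had 29.0, 10.8 and 99.3 against 17.1, 17.7 and 7.57 FPKM, and the receptor and target Ptch1 had 53.4, 32.6 and 59.7 against 45.0, 41.2 and 48.3 FPKM. These last 3 genes overlapped. Among FGF genes 1 of 14 was above and 1 below, with a median of 0.15, and among BMP and Id genes 3 of 17 were above and 0 below, with a median of 0.06. The FGF receptors Fgfr2 and Fgfr3 had 24.3, 16.7 and 138 against 12.1, 13.2 and 25.9 FPKM and 199.99, 65.0 and 173 against 74.7, 63.7 and 74.0 FPKM, and Smad4, the shared mediator of BMP and TGF-beta signals, and Id4, an inhibitor of bHLH factors, had 36.5, 34.5 and 58.0 against 43.9, 34.8 and 51.3 FPKM and 54.6, 69.6 and 67.3 against 66.4, 58.8 and 63.9 FPKM. These 4 genes overlapped. Fgfbp3, a carrier of FGFs, had 31.3, 14.2 and 31.3 against 9.52, 7.78 and 3.24 FPKM, and Msx1, a homeodomain target, had 6.78, 1.27 and 28.6 against 0.0789, 0.339 and 0 FPKM. Msx1 passed the filter only through the ventricular zone, which fixed its lack of overlap.

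Neurogenic commitment genes, which start neuronal differentiation, had a median of 0.44, and 7 of 24 were above and 1 below. Without ventricular zone replicate 2, 13 were above, with a median of 0.86, and in the deep libraries alone 10 were above and 2 below, with a median of 0.33. Neurog2, a proneural bHLH factor, had 76.0, 52.3 and 143 FPKM in the ventricular and 13.9, 10.5 and 37.1 FPKM in the medial mantle zone. The log2 difference was 2.17 ± 0.56 (limma adjusted p = 0.326), and the shallow library of each zone was its highest. Nhlh1, a bHLH factor of newborn neurons, had 45.7, 22.9 and 70.2 against 15.6, 10.7 and 12.1 FPKM, and Ebf3, a factor of early neurons, had 52.9, 78.2 and 49.2 against 33.1, 25.2 and 24.2 FPKM. Neurog3, a related bHLH factor of the mediobasal hypothalamus, was the 1 below, at 0.943, 0.464 and 0 against 2.47, 2.44 and 2.53 FPKM. It passed the filter only through the medial mantle zone, which fixed its lack of overlap. The SOXC factors Sox4 and Sox11 overlapped at 174, 208 and 214 against 214, 195 and 173 FPKM and 172, 139.8 and 175 against 164, 190.5 and 149.5 FPKM.

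Pan-neuronal genes had a median of -0.78, with 30 of 31 estimates below 0, and 11 were below in all libraries and 1 above. Uchl1, a neuronal ubiquitin hydrolase, had 209.9, 406 and 165 against 532, 464 and 446 FPKM, and Dpysl3, a protein of growing axons, had 239, 469 and 183 against 573, 532 and 574 FPKM. In both, ventricular zone replicate 2 came close to the medial mantle zone. Stmn2, a regulator of axonal microtubules, had 119, 309 and 70.2 against 334, 271 and 292 FPKM, so that replicate 2 lay inside the medial mantle zone range. Ina, the filament internexin, had 77.4, 272 and 18.7 against 307, 265 and 281 FPKM, with the same order. Rbfox3, the neuronal splicing factor NeuN, was the exception, at 29.0, 27.2 and 33.9 against 21.3, 23.1 and 16.8 FPKM. Without replicate 2, 28 of 31 were below, beside 21.4% of all genes, and in the deep libraries alone 17 of 31, beside 25.9%. Of 23 genes of synaptic vesicles and SNARE complexes, 5 were below and 0 above, with a median of -0.81. Without replicate 2, 21 were below, with a median of -1.16, and in the deep libraries alone 10 were below and 1 above, with a median of -0.37. Syt1, the calcium sensor of vesicle release, had 11.4, 17.0 and 2.35 against 32.9, 34.6 and 30.0 FPKM, Syt11, a related protein, had 78.2, 74.1 and 98.3 against 94.1, 83.4 and 107 FPKM, and Rab3a, a vesicle GTPase, had 39.1, 80.0 and 24.0 against 111, 93.1 and 104 FPKM.

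**Figure D4:**
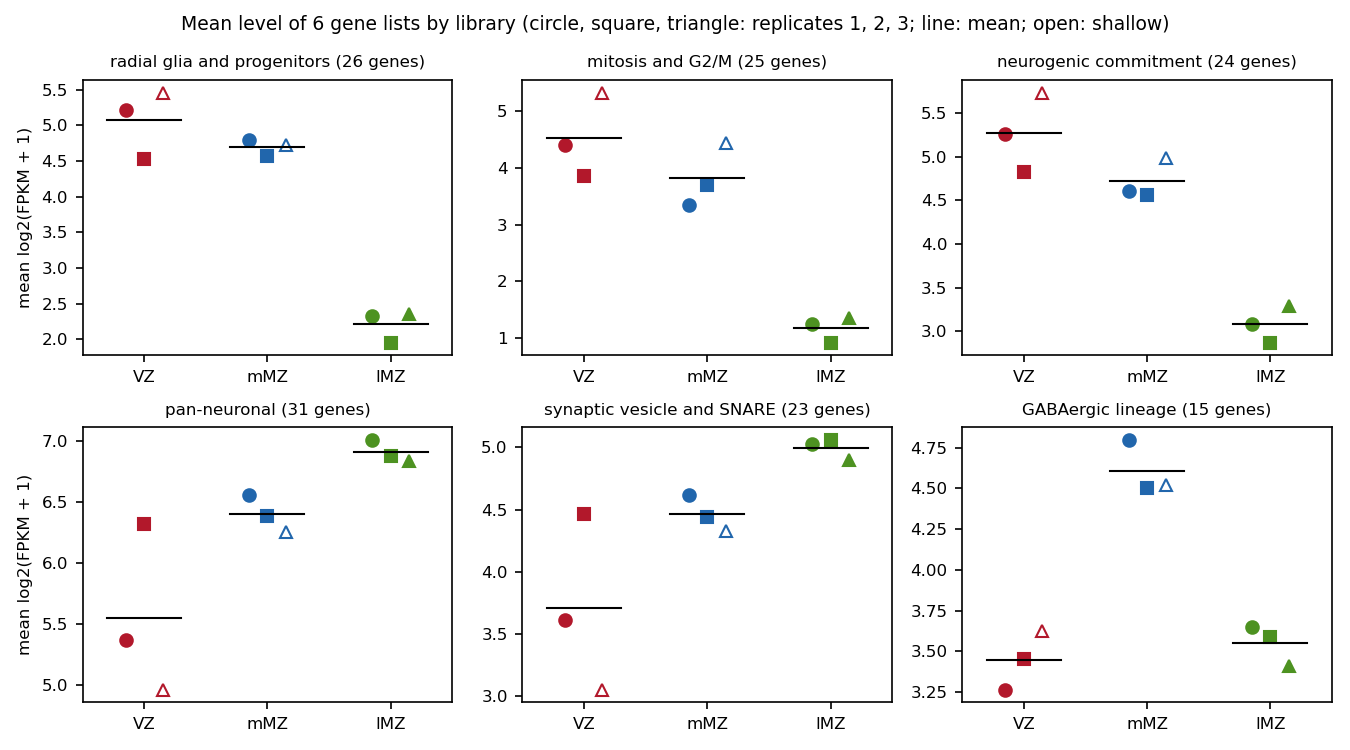
Mean log2(FPKM + 1) of the tested members of 6 gene lists in each library of the ventricular (VZ), medial mantle (mMZ) and lateral mantle (lMZ) zones. Circles, squares and triangles are replicates 1, 2 and 3, open triangles are the shallow libraries, and lines are zone means; axes do not start at 0. The ventricular zone square sits at the medial mantle zone level for progenitor, mitosis, neurogenic commitment, pan-neuronal and synaptic genes, and apart from it for GABAergic genes.

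The mean level of the pan-neuronal list was 5.37, 6.32 and 4.96 on the log2(FPKM + 1) scale in the ventricular zone and 6.55, 6.39 and 6.25 in the medial mantle zone. Replicate 2 thus had the neuronal level of the medial mantle zone. For radial glia genes the values were 5.22, 4.53 and 5.46 against 4.80, 4.57 and 4.73, with replicate 2 below every medial mantle zone library. For GABAergic genes they were 3.26, 3.45 and 3.62 against 4.80, 4.502 and 4.52, and here all 3 ventricular zone libraries lay together.

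GABAergic lineage genes had the highest share without overlap of the lists with at least 9 members: 10 of 15 were below and 0 above, with a median of -1.13. Besides Dlx1, the homeodomain factors Dlx2, Dlx5 and Dlx6 had 37.5, 26.4 and 73.1 against 86.0, 77.4 and 79.0 FPKM, 9.23, 13.6 and 19.99 against 37.4, 26.7 and 27.6 FPKM and 5.63, 14.4 and 3.50 against 25.3, 17.3 and 22.3 FPKM, respectively. Every ventricular zone library was below every medial mantle zone library for each of the 3. Gad1 and Gad2, the enzymes that make GABA, had 20.4, 18.2 and 12.4 against 37.5, 39.1 and 22.6 FPKM and 12.2, 16.2 and 10.3 against 36.9, 25.3 and 25.6 FPKM. Isl1, a LIM-homeodomain factor of several hypothalamic neurons, had 34.8, 21.5 and 71.0 against 122, 73.2 and 69.7 FPKM and overlapped through the shallow libraries. In the deep libraries alone 13 of 15 were below, beside 25.9% of all genes, and 11 of 15 without ventricular zone replicate 2, beside 21.4%. Of 14 glutamatergic lineage genes, 5 were above and 1 below, with a median of 0.40, but Slc17a6, the vesicular glutamate transporter, overlapped at 23.0, 28.7 and 17.3 against 20.7, 23.8 and 28.9 FPKM. So did Nhlh2, a bHLH factor, at 57.3, 53.6 and 59.6 against 30.9, 32.4 and 68.2 FPKM. Neurog2, Ebf2, Ebf3, Barhl2 and Neurod6 were the 5 above, and all are transcription factors.

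Transcription factors that divide the hypothalamus lay on both sides. Among the patterning genes of progenitors 4 of 22 were above and 5 below, with a median of 0.02. Olig2, a bHLH factor, had 36.2, 48.1 and 44.2 against 20.1, 7.02 and 16.8 FPKM, whereas Nkx2-2, a homeodomain factor of ventral progenitors, had 26.9, 10.4 and 23.9 against 54.0, 49.1 and 54.0 FPKM. Vax1 and Six6, homeodomain factors of the anterior and ventral hypothalamus, had 51.9, 19.4 and 45.8 against 86.5, 97.3 and 104 FPKM and 0.0620, 0.0202 and 0 against 10.1, 4.19 and 2.01 FPKM. Six6 was all but absent from the ventricular zone libraries. It passed the filter only through the medial mantle zone, so its lack of overlap followed from the filter. Nkx2-1, which marks most of the hypothalamus, was present in all, at 132, 191 and 41.5 against 146, 119 and 40.2 FPKM, and did not separate the zones.

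Single factors with a higher mean in the ventricular zone are described next. They were picked after their values were seen and form no list of their own. The list of lateral hypothalamic and diencephalic genes, which holds several of them, had a median of -0.05, with 6 of 23 above and 5 below, and the median was -0.26 without ventricular zone replicate 2 and 0.20 in the deep libraries. Foxa1, a forkhead factor, had 26.4, 22.2 and 54.5 FPKM in the ventricular and 1.74, 8.18 and 0 FPKM in the medial mantle zone. Lmx1a and Lmx1b, LIM-homeodomain factors, had 33.9, 14.2 and 70.7 against 2.97, 10.3 and 0 FPKM and 36.1, 21.1 and 19.4 against 2.82, 15.8 and 0 FPKM. All 3 were listed at 0 in the shallow medial mantle zone library and present in the other two. Barhl1 and Barhl2, homeodomain factors, had 101, 98.6 and 199 against 18.6, 61.4 and 0 FPKM and 71.1, 29.0 and 79.6 against 8.60, 13.0 and 1.43 FPKM, and Nkx2-4 had 78.8, 87.1 and 57.5 against 40.02, 26.7 and 0 FPKM. The medial mantle zone libraries differed widely among themselves for Barhl1, and the SE was large, with a log2 difference of 3.57 ± 1.45. Ventricular zone replicate 2 was above all medial mantle zone libraries for each of these 6 genes.

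**Figure D5:**
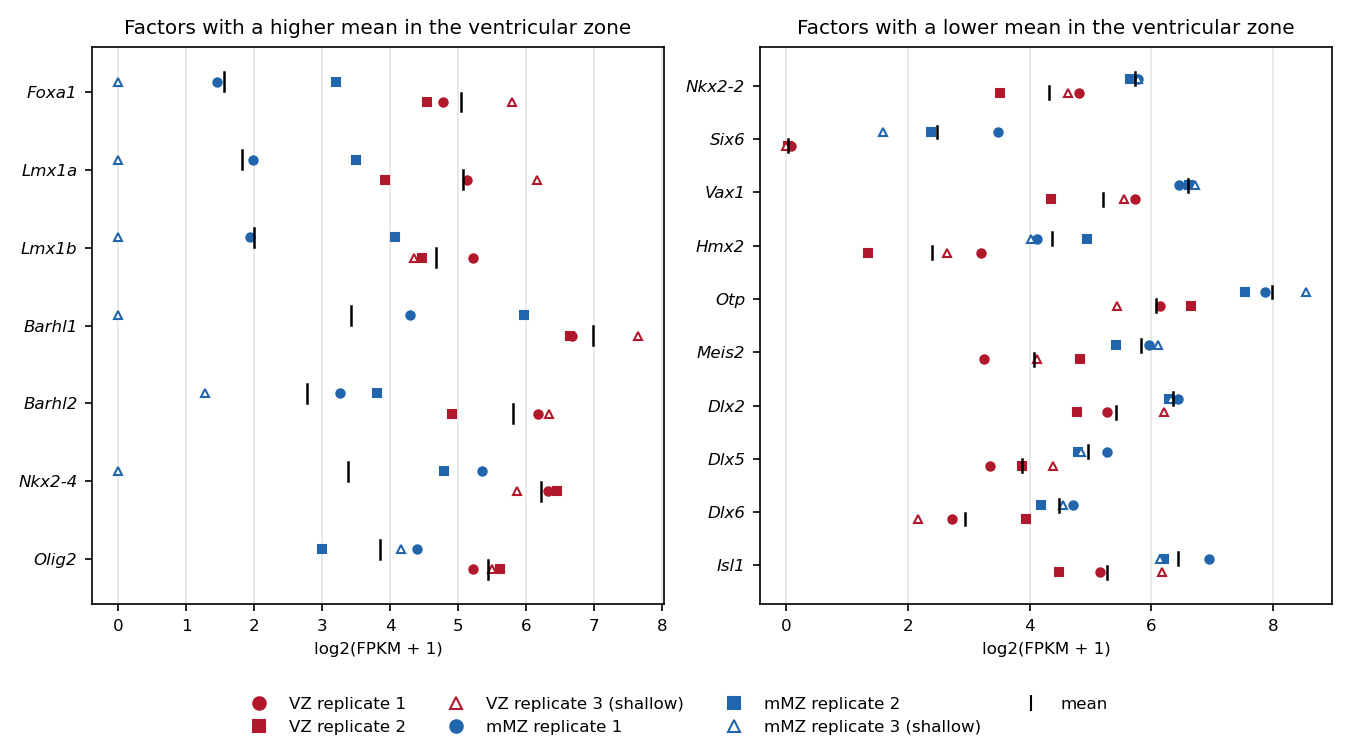
log2(FPKM + 1) by library of 17 transcription factors picked, after their values were seen, for a higher (left) or lower (right) mean in the ventricular zone. Red symbols are ventricular zone (VZ) and blue symbols medial mantle zone (mMZ) libraries, circles, squares and triangles are replicates 1, 2 and 3, open triangles are shallow, and black ticks are means. The open blue triangles at 0 are the genes listed at 0 in medial mantle zone replicate 3.

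Specifiers of medial hypothalamic neurons had a median of -0.94, with 10 of 22 below and 1, Nkx2-4, above. Otp, a homeodomain factor required for neuroendocrine neurons, had 69.6, 99.9 and 42.4 against 232, 185 and 370.2 FPKM (log2 difference -1.90 ± 0.52, limma adjusted p = 0.352), and Hmx2, a factor of arcuate neurons, had 8.25, 1.55 and 5.23 against 16.5, 29.8 and 15.2 FPKM. Meis2, a TALE homeodomain factor listed with lateral and diencephalic genes, had 8.54, 27.5 and 16.5 against 61.4, 41.6 and 67.6 FPKM. Nr2f1, the most abundant of the specifiers, overlapped at 184, 139.9 and 216 against 217, 247 and 203 FPKM.

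Among genes for neuropeptides and the circuits of feeding, 14 of 32 were tested. Their median was -1.15, the lowest of the lists with at least 9 members, with 5 below and 1 above. Cartpt, the precursor of the CART peptides, had 0.230, 1.36 and 0 against 7.54, 14.3 and 66.0 FPKM. Sst, the precursor of somatostatin, had 3.41, 51.1 and 0 against 94.7, 22.4 and 0 FPKM, and Pomc, the precursor of the melanocortins, had 1.55, 1.91 and 4.28 against 84.1, 4.88 and 2.06 FPKM. Single libraries set the means of Sst and Pomc, and the estimate for Sst, -1.10 ± 1.67, was 0.21 without ventricular zone replicate 3. That fit kept the 0 of the shallow medial mantle zone library, and in the deep libraries alone the estimate for Sst stayed below 0. Cck, the precursor of cholecystokinin, was the gene above, at 3.15, 5.20 and 6.95 against 1.59, 1.14 and 0 FPKM.

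Guidance genes of axons had a median of -0.09, with 4 of 31 above and 3 below. Ntn1, the attractant netrin 1 that is made by midline and ventricular cells, had 92.4, 50.8 and 94.5 against 34.3, 34.9 and 17.8 FPKM, and Slit2, a repellent, had 38.4, 25.7 and 64.3 against 11.6, 15.01 and 19.6 FPKM. Epha3, an ephrin receptor, had 27.9, 9.98 and 56.1 against 5.04, 8.54 and 6.97 FPKM, whereas the ligand Efnb3 had 47.4, 55.8 and 27.3 against 92.4, 103 and 82.4 FPKM. Ephb2, a receptor of the same family, overlapped at 62.5, 61.3 and 111 against 71.3, 65.0 and 55.9 FPKM. Of 21 genes of the extracellular matrix, 4 were above and 0 below, led in level by the fibrillar collagen Col2a1 (113, 42.8 and 186 against 16.7, 31.2 and 14.1 FPKM). Sparc, a matrix glycoprotein, overlapped at 81.4, 63.4 and 52.9 against 82.5, 55.3 and 35.2 FPKM.

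Genes used in all cells were read beside these. Of 17 hypoxia and glycolysis genes, 3 were above and 0 below, with a median of 0.30, which was 0.05 in the deep libraries alone, and the glycolytic enzymes Gapdh and Pkm overlapped at 509, 538 and 812 against 523, 492 and 417 FPKM and 440.3, 469 and 527 against 483, 495 and 426 FPKM. Of 29 ribosomal protein genes, 1 was above and 0 below, with a median of 0.17. After trimmed mean scaling 12 of the 29 were above, beside 7.32% of all genes, and after quantile normalization 9, beside 7.22%. In the deep libraries the median was 0.04. Rpl32 and Rps15 had 689, 786 and 958 against 700.0, 681 and 597 FPKM and 669, 744 and 975 against 689, 697 and 717 FPKM. For Rpl32 and Rps15 the shallow library was the highest of the ventricular zone, and the zones overlapped. Of 15 tested immediate early and stress genes, 0 were above and 2 below, with a median of -0.02. The chaperones Hsp90aa1 and Hspa8 had 197, 294 and 462 against 299, 283 and 439 FPKM and 649, 812 and 723 against 941, 826 and 866 FPKM, and Hspa8 was below in all libraries. In the whole list of 21, 12 members were listed at 0 in ventricular zone replicate 3 and 8 in the shallow medial mantle zone library, against 0 or 1 in the other 4 libraries. Mitochondrially encoded genes had a median of 0.38 with 0 of 13 above or below, against 7 above and 1 below in the deep libraries and 3 above without ventricular zone replicate 2, and they summed to 29260, 23344 and 43453 FPKM in the ventricular and 20548, 23218 and 37039 FPKM in the medial mantle zone, highest in the shallow library of each. Of them mt-Atp6 and mt-Atp8, subunits of ATP synthase, had 3814, 2975 and 5924 against 2596, 2987 and 5394 FPKM and 4141, 3369 and 6890.5 against 3255, 3647 and 7075 FPKM.

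Markers of other cell types were also read. Of 15 endothelial genes, 0 were above and 2 below, with a median of -0.62. Without ventricular zone replicate 2, 5 were below, with a median of -1.19, and in the deep libraries alone 4, with a median of -0.39. Their summed level was 61.1, 125.7 and 31.7 FPKM in the ventricular and 150.4, 99.2 and 66.8 FPKM in the medial mantle zone, and 10 of the 15 were listed at 0 in ventricular zone replicate 3. Cldn5, a tight junction protein of vessels, had 6.10, 17.4 and 2.88 against 24.1, 15.2 and 9.73 FPKM, and Slc2a1, a glucose transporter, had 20.3, 37.1 and 14.7 against 39.7, 26.3 and 15.5 FPKM. In both, ventricular zone replicate 2 was the highest of its zone. For erythroid genes the median was 0.02 and for microglia and macrophage genes 0.01, with 0 of 10 and 0 of 9 without overlap. In the deep libraries alone 8 of the 10 erythroid genes were below, beside 25.9% of all genes, with a median of -0.28, and of the 9 microglia and macrophage genes 1 was above and 2 below, with a median of -0.20. Hbb-y and Hba-a1, globins of embryonic red cells, were abundant in every library at 1063, 1052 and 1079 against 1367, 1233 and 819 FPKM and 667, 631 and 744 against 844, 723 and 394 FPKM, while the microglial genes C1qa and Laptm5 had 3.35, 4.76 and 4.11 against 4.52, 6.37 and 3.96 FPKM and 3.38, 5.76 and 0 against 6.25, 8.71 and 3.16 FPKM. Of 6 pericyte genes 1 was above, Notch3 (42.5, 23.1 and 40.5 against 19.0, 20.02 and 21.9 FPKM), and 1 below, Vtn (2.05, 2.99 and 0 against 5.81, 3.65 and 16.8 FPKM), and of 5 genes of the meninges 0 were above and 1 below, Igf2 (4.76, 10.3 and 4.54 against 13.9, 12.4 and 29.3 FPKM). Foxd1, also in that list, overlapped at 20.8, 9.12 and 28.1 against 22.9, 21.5 and 26.5 FPKM. Of 7 oligodendrocyte precursor genes 1, Olig2, was above and 2 below. Among 4 genes of cranial ganglia none was without overlap, with Eya2 at 2.80, 3.27 and 35.6 against 5.23, 2.09 and 25.1 FPKM, and of 10 genes of telencephalon and thalamus 1 was above and 1 below, with Lhx2 at 30.5, 21.3 and 66.1 against 25.5, 43.1 and 62.9 FPKM. Of 7 choroid plexus genes 2 were tested, Otx2 and Folr1, and both were above, while Ttr, its most abundant transcript, was at 0.308, 0 and 0 against 0.129, 0.139 and 0 FPKM and not tested. The summed level of the 7 was 36.0, 14.8 and 48.7 against 6.01, 2.46 and 0.704 FPKM. The part of these differences in the results above was not tested.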

How the data were processed

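RNA was measured in 9 libraries, 3 from each of the ventricular, medial mantle and lateral mantle zones, grouped by the labels. The authors deposited FPKM values, with a single value for each gene in each library. Bowtie2 2.1.0 and mm10 are named in the submitters' processing notes, whereas the program and annotation behind the FPKM values are not given in the sources used here. From 38370 rows, 42 exact copies were dropped, and for repeated symbols the row of highest mean was used, which dropped 133 more. Coordinates are GENCODE M21 gene spans on mm10 (GRCm38).

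The filter was 1 FPKM in 3 of the 6 compared libraries. Values were taken as log2(FPKM + 1), a scale that understates the change of low genes. The model in limma 3.58.1 (R 4.3.3) had a mean for every zone, used all 9 libraries and an intensity trend, and gave two-sided p-values with Benjamini-Hochberg adjustment and a threshold of 0.05. On simulated data, the fit held the false call share under the threshold when libraries had an equal spread. It did not when each library had its own spread, with or without ventricular zone replicate 2. The false call share in the measured libraries was not tested. Depth was read from the step between low values and is approximate, and no counting intervals were computed.

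The comparison, the 37 gene lists and the tests were chosen with earlier results of these data known. The rule for naming genes took, per direction, the 15 largest differences among genes past the threshold. As none passed, its second clause applied: genes without overlap, with at least 5 FPKM in the higher zone and the lowest p, leaving out predicted genes. It also took the 2 members of highest level from each list, and Cenpj. A gene that the rule took is not reported here. Promoters, planned for passing genes, are given for these genes instead, in a window of the 250 bases before the RefSeq start. Of 702 list symbols, 690 were in the table and 588 were tested. In all, 20 other settings were tried, and, after the count without ventricular zone replicate 2 had been seen, 19 more on that fit.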

Additional observations from a re-analysis of the deposited data

How the results depend on the processing

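The count of 0 genes held under 15 of the 20 other settings tried first and was 5 (2 higher, 3 lower) with a pseudocount of 5, 4 (1, 3) with a filter of 5 FPKM, 9 (2, 7) after quantile normalization and 2545 (690, 1855) with array weights. Array weights were 3.31, 0.471 and 0.105 for ventricular zone replicates 1, 2 and 3. Replicate 1 thus largely set the mean of its zone in the fit with array weights. Leaving out 1 library gave 0 to 610 genes, 0 to 105 higher and 0 to 505 lower, and ventricular zone replicate 2 was the library behind each upper value. With the replicate block the count was 0. Same-numbered libraries did not all deviate together (r = 0.097, 0.168 and 0.253 between ventricular and medial mantle zones, across genes), so the numbers were not taken to pair samples, and not every library correlated best with its own number.

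The 610 genes without ventricular zone replicate 2 (105 higher, 505 lower), a fit expanded after seeing the data, became 270 (43, 227) with no filter, 56 (2, 54) with array weights, 0 (0, 0) with only the libraries of the compared zones, 363 (52, 311) with the replicate block and 927 (801 lower) in the deep libraries. The higher genes became 39 and 163 with pseudocounts of 0.1 and 5 and 204 after quantile normalization, and the lower became 320 with no intensity trend. Leaving out 1 further library gave 24 to 4235, 5 to 1811 higher and 19 to 2424 lower. At 4235 ventricular zone replicate 3, and at 927 and at 234 (replicate 3 left out) replicate 1, was the lone library of its zone, assumed to vary like the other groups.

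The 2000 genes without overlap became 5809 (2366 above, 3443 below) in the deep libraries and 2694 to 4534 (1079 to 1689 above, 1549 to 2845 below) with 1 library left out. Fewer libraries overlap less by construction. At the same number of libraries, however, the count was 2751, 3497 and 4534 without ventricular zone replicate 1, 3 and 2, respectively. The reason for this range was not tested.

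Of the 69 highest expressed list members, 26 reversed in at least 1 setting, and of all 195 genes followed 31 did. Many of these genes were chosen for their separation, so a kept sign says little. After quantile normalization the reversed log2 differences were Sox11 0.043, Pkm -0.018 and Hbb-y 0.038. After trimmed mean scaling the reversed log2 differences were Sox11 0.0080, Smad4 0.024 and Ctnnb1 0.034. With array weights the reversed log2 differences were Slc17a6 0.055, Tbr1 0.066, Sim1 0.56, Cdk4 -0.035, Sox4 -0.18, Id4 -0.14, Ift46 -0.38, Ephb2 -0.091, Pkm -0.12, Rps15 -0.020, Hba-a1 -0.19 and Eya2 -0.20. In the deep libraries alone the reversed log2 differences were Sox2 -0.16, Slc17a6 0.20, Sim1 0.69, Cdk4 -0.13, Sox4 -0.10, Ptch1 -0.044, Id4 -0.019, Ift46 -0.34, Ephb2 -0.14, Pkm -0.10, Hba-a1 -0.27 and Eya2 -0.12. With 1 library left out the log2 differences that reversed spanned Cdk4 -0.15 to 0.24, Ctnnb1 -0.30 to 0.14, Ephb2 -0.043 to 0.38, Eya2 -0.98 to 0.94, Foxd1 -0.72 to 0.038, Fzd3 -0.10 to 1.05, Hba-a1 -0.20 to 0.35, Hbb-y -0.29 to 0.083, Hes5 -0.19 to 1.26, Hsp90aa1 -0.47 to 0.14, Id4 -0.054 to 0.12, Ift46 -0.10 to 0.33, Lhx2 -0.67 to 0.13, Nkx2-1 -0.37 to 0.83, Odf2 -0.033 to 0.25, Pkm -0.039 to 0.090, Ptch1 -0.098 to 0.33, Sim1 -0.78 to 0.17, Slc17a6 -0.27 to 0.079, Slc2a1 -0.53 to 0.14, Smad4 -0.26 to 0.10, Sox11 -0.13 to 0.054, Sox2 -0.19 to 0.57, Sox4 -0.048 to 0.12, Sparc -0.058 to 0.55, Sst -2.95 to 0.34, Vcan -0.53 to 0.038, mt-Atp6 -0.043 to 0.55 and mt-Atp8 -0.23 to 0.41. The cause was not tested. Genes of a few FPKM are limited by the shallow libraries.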
